A study of Mus musculus with 22 samples.

Results

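Arterial smooth muscle cells of the mouse kidney were compared with those of the bladder, the other urinary organ sampled, across 28099 genes. The members are the 3 kidney and the 3 bladder libraries, chosen by their tissue labels, out of 22 libraries from 7 tissues. Both tissues came from mice of the genotype Cspg4-Dre/Acta2-CreERT/R26-GFP, and all 6 samples are labelled as tamoxifen-treated, with a dose of 0.75 mg per 10 g given over 3 days. Cells were sorted by fluorescence and at most 10 ng of RNA went into a full-length cDNA kit for small inputs. The Cre of this genotype depends on Acta2, the smooth muscle actin gene, which visceral smooth muscle and myofibroblasts also use, and the Dre on Cspg4, which encodes the mural cell proteoglycan NG2. Neither age nor sex is given in the sources used here, nor whether each library is a different animal. The spread behind the p-values is therefore that of these libraries and may be technical.

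The deposited unit is a signal, judged from the values to be the reads of a gene scaled per library and rounded to a whole number. Differences below are kidney minus bladder in log2(signal + 1), with their standard error, tested by limma over the 14350 genes with a signal of 10 or more in at least 3 of the 6 libraries. A gene was called at a Benjamini-Hochberg adjusted p under 0.05.

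Smooth muscle of an artery wraps the endothelium and sets vessel calibre through receptors, ion channels and actomyosin. Its precursors arise locally in each organ, so the cells can keep a regional code of Hox genes, whose order along the chromosome follows their order along the body axis, and of organ-specific mesenchymal factors. In the kidney, cells of the afferent arteriole wall can also switch to making renin, and their precursors belong to the Foxd1 stromal lineage. The bladder wall forms from mesenchyme of the cloacal region, where hedgehog signals from the epithelium act on Foxf1, Wnt and BMP genes.

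The smooth muscle markers were present in all 6 libraries. Acta2 was at 1662, 2237 and 3440 in kidney and at 2128, 2771 and 2582 in bladder, with no difference beyond the spread (-0.08 ± 0.30, adjusted p = 0.892). Myh11, the smooth muscle myosin heavy chain, ranged from 6075 to 13518 in kidney and from 1379 to 8695 in bladder (adjusted p = 0.242). Tagln, an actin-binding protein of contractile cells, was lower in every library, at 127 to 290. Cspg4, which drives the Dre, was at 2321, 65 and 2542 in kidney and 800, 179 and 15 in bladder. Kidney 2 and bladder 3 therefore stood apart from their groups for this gene, and counts without both are given with the first counts.

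Rebuilt reads per library numbered 4943573 to 12475537 in kidney and 4388921 to 8611737 in bladder. The depth of bladder 2, taken as 6174868 reads, is uncertain, since a depth of 12496856 fitted its values nearly as well. Of the 14153 tested genes with a known exon length, 1918 had a density of at least 0.5 reads for each exonic base in 1 or more libraries. For such genes the number of reads levels off and the signal follows what 1 read is worth, which was 0.456 to 1.13 units in kidney and 0.777 to 1.34 in bladder. Among the 225 genes at that density in all 6 libraries the median difference was -0.53, against 0.08 for all genes tested. Genes at that density in 1 or more libraries are called near the read ceiling below, a limit stated for only some of those named. Acta2 and Myh11 are among them, so their comparison between the tissues is limited by the ceiling.

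RNA of other cell types was measured in both tissues. In kidney, 20 of 23 nephron markers passed the test as higher than in bladder, with a median difference of 8.52, or 7.33 with the 9 genes at 0 in every bladder library set to their lower bound against 3 reads per library. Their summed signal was 12914, 17109 and 31113 in kidney and 799, 1945 and 1294 in bladder. Umod, made by the thick ascending limb, was at 966, 1820 and 3438 in kidney, and Slc34a1, the proximal tubule phosphate carrier, at 1780, 1303 and 2420. Of 18 endothelial markers 10 were higher in kidney and, as for the nephron markers, none in bladder at an unadjusted p under 0.05 by limma or called by edgeR or DESeq2. Their median difference was 2.08, with summed signals of 10576, 19688 and 11262 against 5516, 4618 and 2893. Of 16 fibroblast markers 7 were higher in bladder and none in kidney, again also at an unadjusted p under 0.05 and by edgeR and DESeq2. Their median difference was -1.61, with sums of 15568, 27688 and 38047 in kidney and 55339, 54133 and 75822 in bladder, and all 16 were near the read ceiling. Of 13 immune cell markers 6 were higher in bladder and 1, Kit, in kidney, with a median of -3.25 and sums of 1705, 1984 and 500 against 6634, 4739 and 10001. Of 16 urothelial markers 5 were higher in bladder and none in kidney by limma, with 1 higher in kidney at an unadjusted p under 0.05, 0 by edgeR and 1 by DESeq2, and a median of -3.20. They summed to 493, 2212 and 1736 in kidney, and to 11937 in bladder 3 against 1345 and 1468 in bladder 1 and 2. Without single libraries 18 to 21 nephron and 3 to 13 endothelial markers were higher in kidney, the endothelial count lowest without kidney 3. In bladder 4 to 8 fibroblast, 5 to 6 immune and 1 to 7 urothelial markers were higher, the urothelial count lowest without kidney 1. Without kidney 2 and bladder 3 together these counts were, in the same order, 19, 2, 2, 1 and 4. Fewer cells of a type and less RNA per cell cannot be told apart in such bulk libraries, and the part of these cells in the results below was not tested.

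In all, 2045 of the 14350 genes were called (14.3%), 1047 higher in kidney (7.30%) and 998 higher in bladder (6.95%). The kidney and bladder libraries did not overlap for 4542 genes (31.7%), with kidney above bladder for 16.6% and below it for 15.1% of the genes tested. Kidney-high genes had a median difference of 3.81, and 157 of them were at 0 in all bladder libraries. Bladder-high genes had a median difference of 2.52 toward bladder, and 34 were at 0 in all kidney libraries. Set against the mean signal of the other 5 tissues, kidney exceeded all of them for 565 of its 1047 genes, and bladder exceeded all of them for 741 of its 998. Conversely, bladder lay below all 5 for 302 of the kidney-high genes and kidney lay below all 5 for 206 of the bladder-high genes.

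These counts depended on single libraries. Without kidney 1, kidney 2 or kidney 3 the kidney-high count was 542, 617 or 467 and the bladder-high count 561, 798 or 533, and without bladder 2 they were 727 and 581. Without kidney 2 and bladder 3 together they were 500 and 524. With limma's voom weights 61.8% of the calls were higher in kidney, against 51.2% in the main fit, with the median of all genes at 0.24. No gene called here was called in the opposite direction under any of the 21 alternatives.

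**Figure D1:**
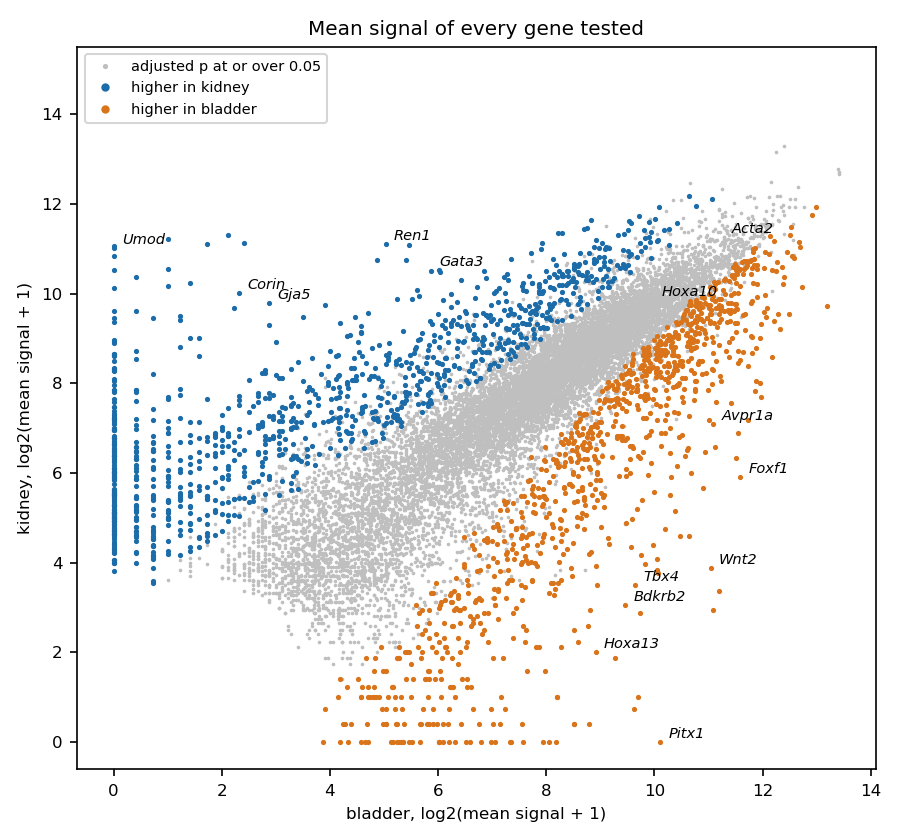
Mean signal of each of the 14350 tested genes in bladder (x axis) and kidney (y axis), both as log2(mean + 1). Blue points were higher in kidney (1047) and orange points higher in bladder (998); Ren1, Gata3 and Umod lie far above the main cloud, Foxf1, Wnt2 and Pitx1 far below it, and Acta2 and Hoxa10 within it.

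Both tissues had posterior Hox genes, none of which had a mean above 16.3 in any of the other 5 tissues, and the most distal genes differed between kidney and bladder. Hoxa13, the last gene of the HoxA cluster, was at 0, 9 and 0 in kidney and at 493, 628 and 323 in bladder (-7.75 ± 0.95, adjusted p = 0.00162), and its mean was at most 1.00 in the other tissues. Hoxd13, the last gene of HoxD, was at 0 in every kidney library and at 57, 75 and 85 in bladder, at least 32.2-fold higher (adjusted p = 0.00132). Hottip, the long noncoding RNA transcribed next to Hoxa13 and chosen after its values were seen, followed the same split, at 0 in every kidney library and at 57, 100 and 34 in bladder. Hoxa11 was present in both, at 112, 181 and 134 in kidney and 839, 626 and 381 in bladder (-2.06 ± 0.39, adjusted p = 0.00968).

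Hoxa10, one paralogue group further forward, did not separate the organs. It stood at 831, 1115 and 838 in kidney and at 1089, 1092 and 856 in bladder (-0.13 ± 0.26, adjusted p = 0.796), while its mean was at most 3.0 in any other tissue. It was near the read ceiling. Other genes of its group and of the next group forward were higher in kidney. Hoxd9 was at 378, 496 and 434 in kidney and 50, 22 and 68 in bladder (3.33 ± 0.50, adjusted p = 0.00365). Hoxc9 was at 156, 232 and 138 against 12, 13 and 27 (3.32 ± 0.57, adjusted p = 0.00632), and Hoxc10 at 274, 356 and 213 against 23, 40 and 60 (2.82 ± 0.51, adjusted p = 0.00771). All 3 were higher in every kidney library than in any bladder library.

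Hoxa9, Hoxb9, Hoxd10 and Hoxd11 were also higher in kidney, by 1.75, 5.03, 3.31 and 2.31, but each of these calls ended in at least 2 of the fits that left out a library. Without kidney 1 the adjusted p was 0.151 for Hoxa9, 0.143 for Hoxd10 and 0.131 for Hoxd11, and without kidney 3 it was 0.0886 for Hoxb9. Hoxc11 was low in both tissues, at 12 to 22 in kidney and 0 to 29 in bladder (adjusted p = 0.706). Hoxb13, Hoxc12 and Hoxd12 did not pass the filter on low values, with no library above 20. Of the 15 posterior genes measured, 12 were tested, 7 higher in kidney and 3 higher in bladder, with a median difference of 2.03. Leaving out 1 library at a time gave 3 to 6 and 3, lowest without kidney 2.

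The anterior and central Hox genes were higher in kidney where they passed the test. Of 17 tested, 10 were higher in kidney and none in bladder by limma, also at an unadjusted p under 0.05 and by edgeR and DESeq2. The median difference was 3.45, and 6 to 10 were called as higher in kidney when single libraries were left out, fewest without kidney 3. Hoxb5 was at 76, 88 and 102 in kidney and 2, 0 and 0 in bladder (5.95 ± 0.77, adjusted p = 0.00206), and Hoxb4 at 83, 78 and 71 against 3, 0 and 1 (5.29 ± 0.78, adjusted p = 0.0033). Hoxb5 and Hoxb4 are genes of the trunk part of HoxB, and lung held more of both than kidney did, with means of 626.0 and 144.0. Hoxc6 was at 290, 273 and 252 against 9, 37 and 3 (4.57 ± 0.80, adjusted p = 0.00681). Hoxd8 had the highest level, at 560, 916 and 1000 in kidney and 154, 249 and 149 in bladder (2.16 ± 0.36, adjusted p = 0.00566), and was near the read ceiling.

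**Figure D2:**
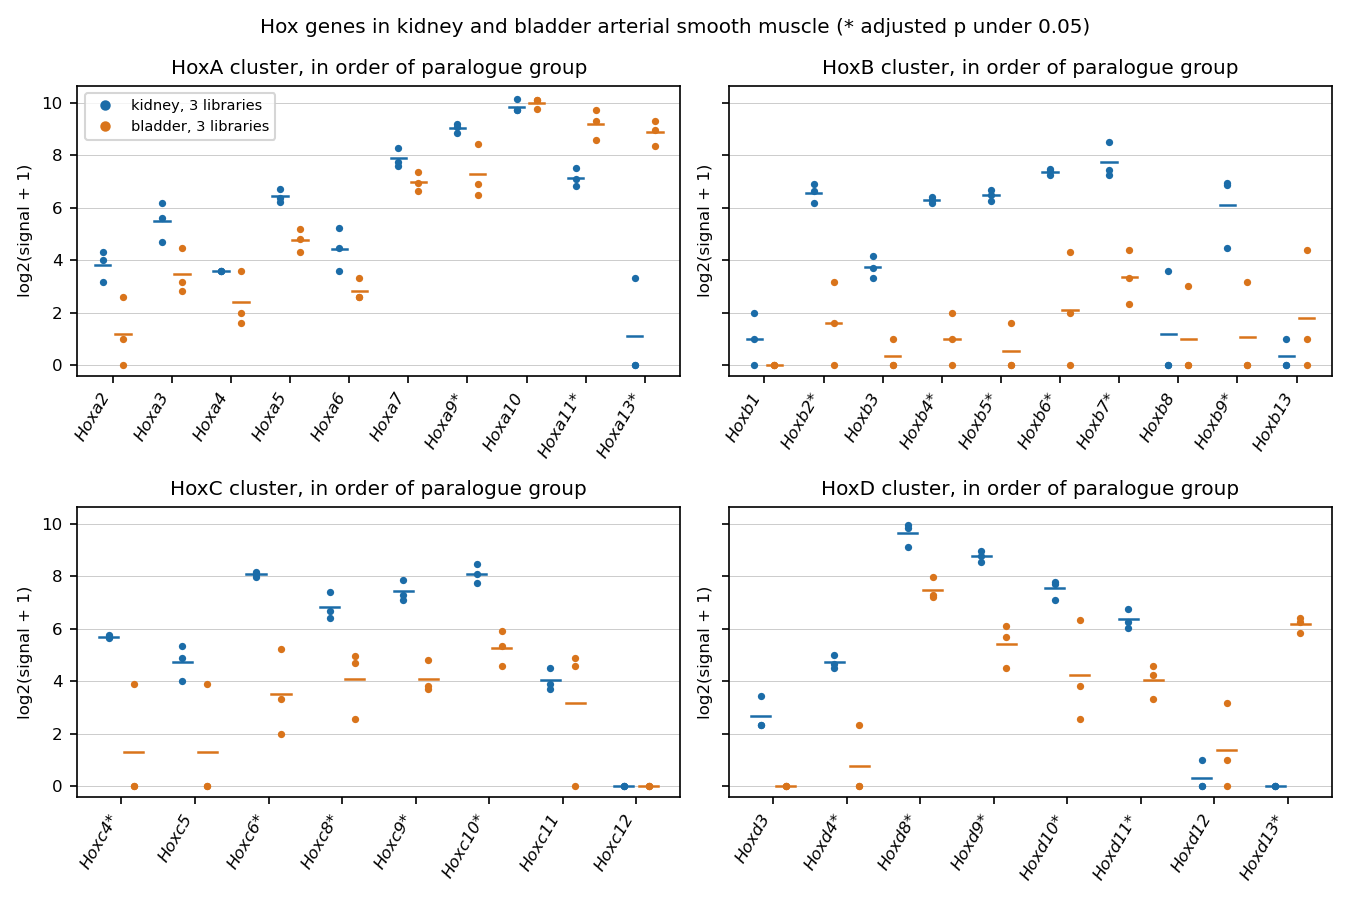
Hox genes of the 4 clusters, without those not reported here, in order of paralogue group (x axis) against log2(signal + 1) (y axis), with a point per library, kidney in blue and bladder in orange, and a bar at the mean of the 3 log values. Hoxa13 and Hoxd13 are near 0 in kidney and present in bladder, Hoxa10 is level, and most genes before it are higher in kidney.

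The transcription factors that pattern organ mesenchyme differed in both directions. Of 51 tested, 19 were higher in bladder and 12 in kidney, with a median difference of -0.74. Without 1 library these counts ran from 15 to 19 and from 7 to 14, lowest without bladder 2 and kidney 3.

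On the bladder side, Pitx1, a homeobox factor of the hindlimb and caudal body, was at 0 in all kidney libraries and at 1057, 1243 and 1013 in bladder, at least 491-fold higher (adjusted p = 0.000114). Stomach also had Pitx1, with a mean of 858.3. Foxf1, the forkhead factor that hedgehog signals induce in the mesenchyme around gut and lung, was at 87, 38 and 52 in kidney and 2865, 3412 and 2967 in bladder (-5.76 ± 0.36, adjusted p = 0.000128). Its relative Foxf2 was at 0, 0 and 2 against 626, 1325 and 413 (-8.92 ± 0.74, adjusted p = 0.000308). Kidney had less of both genes than any other tissue, with lowest means elsewhere of 164.7 and 4.33, and bladder had more Foxf1 than any other, with the next highest mean at 1825, in lung.

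Further bladder-high factors are known from heart, limb and caudal mesenchyme. Isl1, a LIM homeobox factor, was at 0, 1 and 0 in kidney and 280, 584 and 228 in bladder (-8.06 ± 0.71, adjusted p = 0.000386). Gata5 was at 11, 27 and 0 against 1396, 881 and 951 (-7.25 ± 1.07, adjusted p = 0.00333), and Tbx4, the hindlimb and lung T-box factor, at 2, 5 and 24 against 957, 913 and 511 (-6.64 ± 0.78, adjusted p = 0.00133). Tbx20, Hand2, Tbx5, Six2, Tshz3, Osr1 and Gata6 were also higher in bladder, with differences of -6.80, -6.69, -4.66, -5.22, -3.78, -3.20 and -1.70, and kept their calls when any single library was left out. In a fit of all 22 libraries Osr1 and Gata6 lost theirs, at an adjusted p of 0.133 and 0.0577. Tshz3 is known in the mouse ureter, where it is needed for smooth muscle to form.

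Noncoding partners of 2 of these factors moved the same way. Fendrr, a long noncoding RNA that starts beside Foxf1 and is transcribed away from it, was at 3, 7 and 9 in kidney and 879, 961 and 712 in bladder (-6.95 ± 0.53, adjusted p = 0.000233); it was chosen after its values were seen. Hand2os1, which overlaps the start of Hand2 on the other strand, was at 0, 1 and 0 against 256, 765 and 305 (-8.28 ± 0.73, adjusted p = 0.000373). Hand2 was at 0, 2 and 0 against 122, 186 and 144, and reads of such overlapping genes cannot be told apart unless counting used strand, which is not stated.

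The Fendrr promoter is shown because it holds a forkhead motif beside a forkhead gene that was higher in bladder as Fendrr was. It is the 250 bases before the RefSeq start, from build GRCm38.p6, minus strand, chr8:121083111-121083360, 5′ to 3′, with the motif GTAAACA in capitals.
Fendrr: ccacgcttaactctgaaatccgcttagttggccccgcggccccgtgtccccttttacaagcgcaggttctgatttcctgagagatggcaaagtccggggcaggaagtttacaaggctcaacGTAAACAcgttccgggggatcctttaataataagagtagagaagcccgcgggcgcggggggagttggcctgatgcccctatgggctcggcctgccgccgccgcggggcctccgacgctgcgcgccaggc
The motif starts 129 bases before the transcription start. Searched on both strands as GTAAACA or TGTTTAC, it was found in 1040 of 32851 promoters of that length (3.17%), so the match describes these letters and not a bound site.

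On the kidney side, Gata3, a zinc-finger factor that also acts in nephric duct and mesangial development, was at 1531, 1511 and 1346 against 58, 56 and 59 (4.64 ± 0.30, adjusted p = 0.000143). Foxd1, which marks the renal stromal progenitors that give rise to mural and renin cells, was at 97, 341 and 260 against 3, 0 and 1 (6.69 ± 0.82, adjusted p = 0.00162). Alx1, Nkx6-1 and Sall1 were higher by 6.75, 5.79 and 5.54, again without overlap between the libraries.

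Pax8 belongs to the same list but also marks nephron epithelium. It was at 174, 953 and 374 in kidney and 0 in every bladder library, at least 161-fold higher (adjusted p = 0.000413). It is itself among the 20 nephron markers that were higher in kidney. Gata3 is made in collecting ducts too. The part of collecting duct RNA in its difference was not tested.

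**Figure D3:**
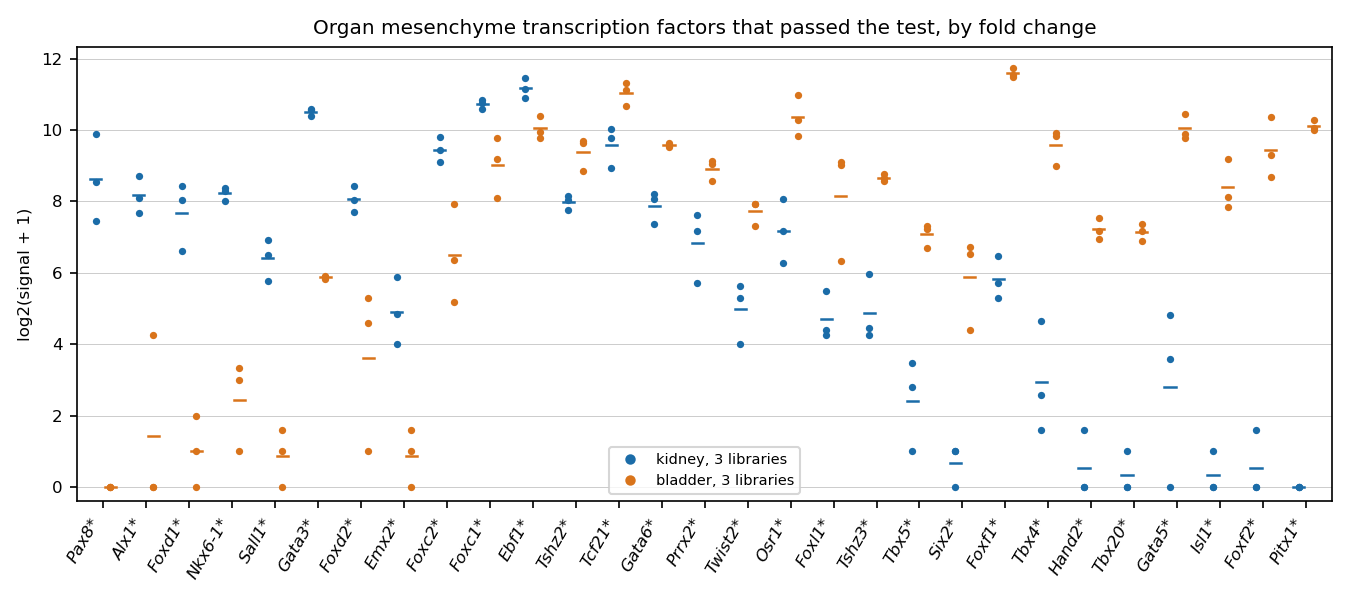
Organ mesenchyme transcription factors that passed the test, without those not reported here, ordered by their difference (x axis), against log2(signal + 1) (y axis), with 1 point per library and a bar at the mean of the 3 log values. Pax8 at the left is at 0 in bladder, Gata3 is level within each tissue, and Isl1, Foxf2 and Pitx1 at the right are near 0 in kidney.

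Ren1, Akr1b7 and Gja5, genes of renin cells, were higher in kidney. Ren1, which encodes the protease that starts the angiotensin cascade, was at 1345, 1934 and 3337 in kidney and 30, 57 and 8 in bladder (6.35 ± 0.67, adjusted p = 0.000771). The highest mean elsewhere was 243.0, in aorta. Ren1 was near the read ceiling, with 2950, 2930 and 2943 rebuilt reads in kidney, so its spread among kidney libraries follows the worth of 1 read. Akr1b7, an aldo-keto reductase made with renin, was at 722, 857 and 1264 against 50, 56 and 5 (5.15 ± 0.81, adjusted p = 0.00443). It too was near the read ceiling. Gja5, the connexin 40 of renin cells and arterial endothelium, was at 1023, 721 and 899 against 14, 0 and 5 (7.61 ± 0.91, adjusted p = 0.00147). The part of endothelial RNA in the Gja5 difference was not tested.

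The Ren1 promoter is shown because it carries a known HOX and PBX element of the mouse renin gene, and posterior Hox genes are what both organs share. It is the 250 bases before the RefSeq start, from build GRCm38.p6, plus strand, chr1:133350424-133350673, 5′ to 3′, with TAAATCA, a part of that element, in capitals.
Ren1: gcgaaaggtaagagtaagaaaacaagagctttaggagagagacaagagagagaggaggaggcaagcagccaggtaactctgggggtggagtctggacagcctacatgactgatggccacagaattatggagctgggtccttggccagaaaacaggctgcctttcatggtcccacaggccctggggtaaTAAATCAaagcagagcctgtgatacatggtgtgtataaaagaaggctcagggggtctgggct
These letters start 62 bases before the transcription start. Searched on both strands as TAAATCA or TGATTTA, they were found in 857 of 32851 promoters (2.61%). The Hox genes of both tissues are given above, and the match says nothing of which of them, if any, is bound there.

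The receptors of the same cascade split. Agtr1a, the main angiotensin receptor of vascular smooth muscle, was at 1468, 1057 and 1262 in kidney and 234, 139 and 93 in bladder (3.10 ± 0.38, adjusted p = 0.00162). Agtr2, the second type of angiotensin receptor, was at 18, 24 and 11 against 332, 40 and 333 (-3.21 ± 0.86, adjusted p = 0.0381). That call ended without any library but bladder 2, with an adjusted p of 0.141 without kidney 3. Agt, the substrate of renin, was at 49, 142 and 73 against 80, 88 and 17 (adjusted p = 0.614), and Ace, the converting enzyme, at 155, 279 and 210 against 677, 249 and 369 (adjusted p = 0.214). Of the 27 renin and angiotensin genes tested, 7 were higher in kidney (25.9%) and 3 in bladder (11.1%), with a median of 0.68. The shares of all genes tested were 7.30% and 6.95%. Without 1 library the counts were 6 to 13 and 0 to 3, lowest without kidney 3 and bladder 3.

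Receptors for vasoactive ligands differed in both directions. Of 53 tested, 13 were higher in kidney (24.5%) and 8 in bladder (15.1%), against 7.30% and 6.95% of all genes tested. The median difference was 1.25. Leaving out single libraries gave 5 to 17 and 4 to 7, both lowest without kidney 1.

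Bladder cells had more of the peptide receptors for vasopressin and bradykinin. Avpr1a, the vasopressin receptor that constricts vessels, was at 99, 140 and 170 in kidney and 2430, 2824 and 1254 in bladder (-3.93 ± 0.38, adjusted p = 0.000536), and the highest mean elsewhere was 363.8, in intestine. Bdkrb2, the constitutive bradykinin receptor, was at 2, 11 and 9 against 1123, 674 and 318 (-6.45 ± 0.72, adjusted p = 0.00105). Bdkrb1, its inducible relative, was at 2, 0 and 0 against 109, 148 and 40 (-5.92 ± 0.86, adjusted p = 0.00315). The sphingosine phosphate receptor S1pr2 was at 224, 292 and 334 against 1263, 822 and 1266 (-1.97 ± 0.31, adjusted p = 0.00443). Each of these was higher in every bladder library than in any kidney library.

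Kidney cells had more of the receptors for natriuretic peptide, VIP and histamine. Npr1, the guanylyl cyclase that binds atrial natriuretic peptide, was at 910, 867 and 702 in kidney and 140, 45 and 39 in bladder (3.69 ± 0.50, adjusted p = 0.00255). Vipr2, a receptor for vasoactive intestinal peptide, was at 825, 446 and 667 against 112, 52 and 59 (3.14 ± 0.43, adjusted p = 0.00262). Hrh2, the histamine receptor that raises cyclic AMP, was at 156, 165 and 66 against 9, 0 and 0 (5.80 ± 1.02, adjusted p = 0.00681). The dopamine receptor Drd1, the adenosine receptor Adora1, the adrenergic receptors Adra1a and Adra2b, the endothelin receptor Ednrb and the ATP-gated channel P2rx1 were higher in kidney by 4.30, 4.62, 4.90, 3.89, 2.46 and 3.83. Their calls ended without kidney 3, with an adjusted p of 0.0959, 0.0785, 0.133, 0.0573, 0.0703 and 0.0852. The P2rx1 call also ended without kidney 1 and without kidney 2. The Hrh2 call ended without kidney 2 and bladder 3 together (adjusted p = 0.0639). Ednra, the other endothelin receptor, was at 2488, 1733 and 2208 against 1168, 1006 and 274 (adjusted p = 0.0644).

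Potassium channels were mostly higher in kidney where they passed. Of 35 tested, 11 were higher in kidney (31.4%) and 3 in bladder (8.57%), against 7.30% and 6.95% of all genes tested. The median difference was 1.26. Without 1 library the counts were 5 to 14 and 2 to 4, the kidney count lowest without kidney 3. Kcna5, a voltage-gated channel of resistance arteries, was at 2157, 1641 and 1998 in kidney and 430, 149 and 52 in bladder (3.67 ± 0.64, adjusted p = 0.00655). Kcnmb1, the smooth muscle beta subunit of the large calcium-activated channel, was at 1495, 1521 and 1329 against 371, 394 and 141 (2.39 ± 0.40, adjusted p = 0.00584). Kcnj11, the pore of the ATP-sensitive channel, was at 59, 69 and 77 against 6, 0 and 0 (5.17 ± 0.93, adjusted p = 0.00742). Kcnj16 and Kcnj15, inward rectifiers that tubule epithelium also uses, were at 0 in every bladder library and at 64 to 579 in kidney, beside the nephron markers.

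The 3 bladder-high potassium channels were of other families. Kcnk2, the stretch-activated TREK1 channel, was at 14, 20 and 18 in kidney and 453, 683 and 193 in bladder (-4.43 ± 0.58, adjusted p = 0.00206). Kcnn3, a small calcium-activated channel, was at 14, 13 and 68 against 637, 231 and 271 (-3.81 ± 0.73, adjusted p = 0.00951). Kcnb2, the third, was at 10 to 45 in kidney and 102 to 231 in bladder, and its call ended in 5 of the 6 fits that left out a library. Intestine had comparable levels of Kcnn3, with a mean of 537.5. Kcnn3 is also known in fibroblast-like cells that carry PDGFRA, and Pdgfra itself was at 742, 411 and 1311 in kidney and 6331, 2926 and 3782 in bladder (-2.48 ± 0.44, adjusted p = 0.00733).

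**Figure D4:**
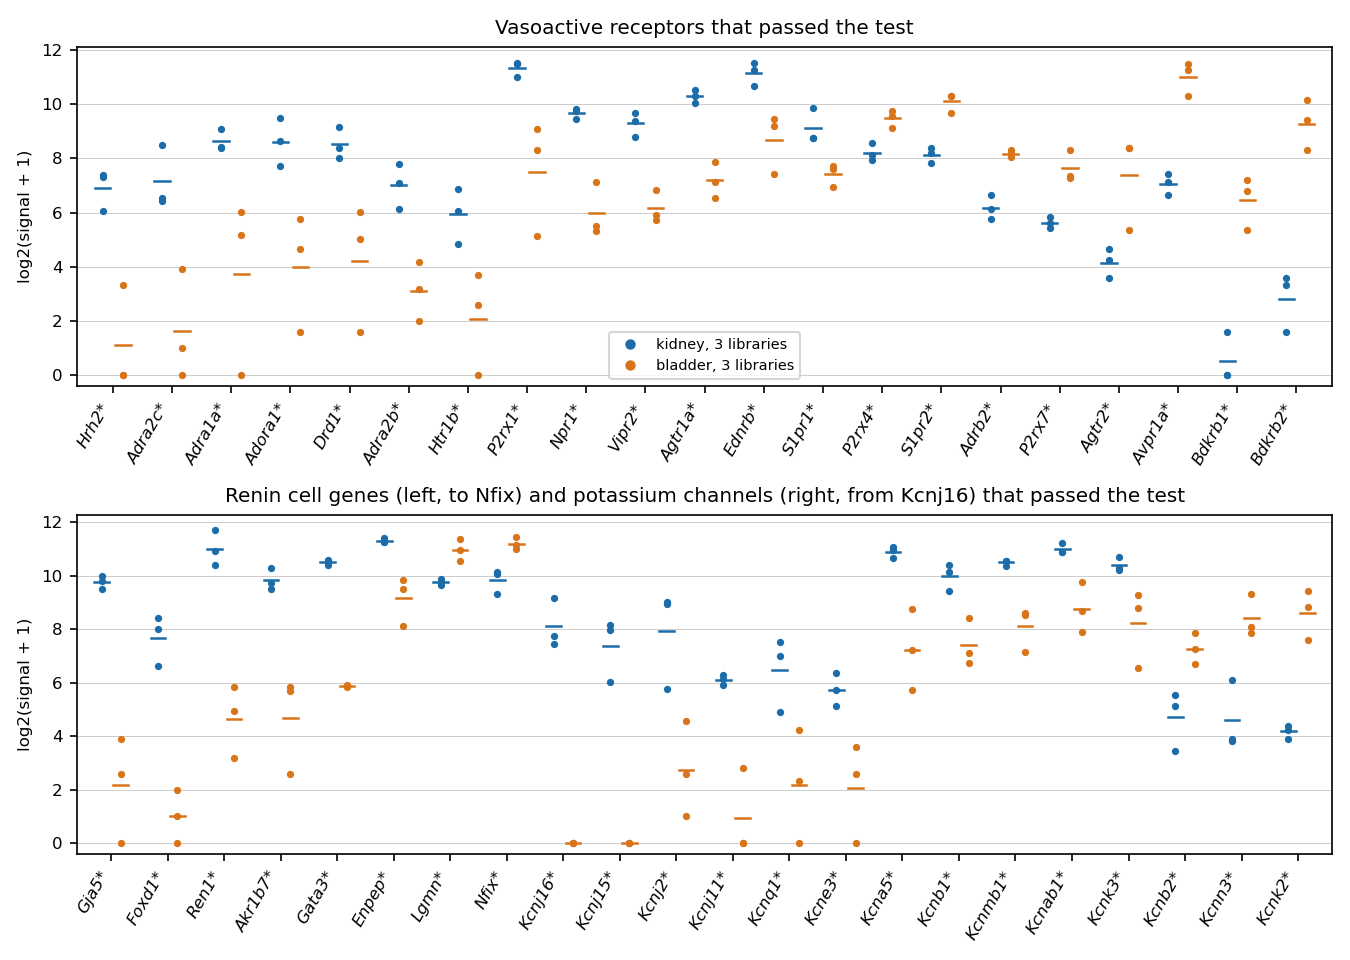
Vasoactive receptors (upper panel), renin cell genes and potassium channels (lower panel) that passed the test, against log2(signal + 1), with a point per library and a bar at the mean of the 3 log values. Hrh2 and Adra2c at the upper left are near 0 in bladder and Bdkrb1 and Bdkrb2 at the upper right are low in kidney.

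Of 15 genes of cyclic GMP relaxation 7 were higher in kidney and none in bladder by limma, with a median of 1.13; at an unadjusted p under 0.05, 3 were higher in bladder, and edgeR and DESeq2 called 0. Corin, the protease that activates atrial natriuretic peptide, was at 1407, 616 and 1079 in kidney and 6, 6 and 0 in bladder (8.06 ± 0.83, adjusted p = 0.000693). Corin and Npr1 kept their calls without any single library, whereas Gucy1a2, Gucy1b1, Prkg1, Irag1 and Nos3 lost theirs without kidney 3, with an adjusted p of 0.107, 0.109, 0.176, 0.128 and 0.0885. Nos3 is an endothelial gene, and endothelial markers were higher in kidney as given above. The count fell to 2 without bladder 2.

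Of 39 genes of calcium entry, calcium release and chloride channels, 7 were higher in kidney and none in bladder by limma, with a median of 1.04, while 2 were higher in bladder at an unadjusted p under 0.05, 1 by edgeR and 2 by DESeq2. Without single libraries the count ran from 0 to 18 and was 0 without kidney 3. Trpc1, a cation channel subunit, had the largest difference of the 7, at 1448, 572 and 1167 in kidney and 255, 88 and 58 in bladder (3.16 ± 0.57, adjusted p = 0.00786, and 0.0501 without kidney 3).

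Of 38 contractile apparatus genes tested, 7 were higher in kidney (18.4%) and 2 in bladder (5.26%), against 7.30% and 6.95% of all genes tested. Their median difference was 0.55, and 25 of the 38 were near the read ceiling. Without 1 library the counts were 2 to 12 and 1 to 2, the kidney count lowest without kidney 1. Ldb3, a scaffold protein best known from the Z-disc of striated muscle, was at 1830, 1606 and 1822 in kidney and 250, 174 and 59 in bladder (3.66 ± 0.49, adjusted p = 0.00223). Lmod1, which nucleates actin filaments in smooth muscle, was at 1635, 1373 and 1467 against 647, 556 and 330 (1.60 ± 0.31, adjusted p = 0.0101). Actg2, the enteric actin of visceral smooth muscle, was at 273, 428 and 235 in kidney and 1192, 1952 and 938 in bladder (-2.10 ± 0.36, adjusted p = 0.00653). Kidney had less Actg2 than any of the other 5 tissues, whose lowest mean was 1190, in intestine.

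Myocd, the coactivator that switches on contractile genes, was at 711, 169 and 512 in kidney and 126, 35 and 7 in bladder (3.58 ± 0.96, adjusted p = 0.0383), and its call ended in 5 of the 6 fits that left out a library, with an adjusted p of 0.164 without kidney 1. Cnn1 (adjusted p = 0.939) and Des (adjusted p = 0.767) overlapped between the tissues. Of 17 visceral smooth muscle genes 5 were higher in bladder, Foxf2, Hand2, Foxf1, Bmp5 and Actg2, and 4 in kidney, P2rx1, Kcnmb1, Lmod1 and Rbpms2, with a median of 1.13; the bladder count stayed at 5 without any single library and the kidney count ran from 2 to 6, lowest without kidney 1.

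Of 38 Wnt and hedgehog genes tested, 14 were higher in bladder, 2 were higher in kidney and 22 did not pass the test, with a median of -1.36, and without single libraries 8 to 13 and 1 to 4, the bladder count lowest without kidney 1. Wnt2, a ligand of lung and gut mesenchyme, was at 8, 11 and 22 in kidney and 1742, 2050 and 2515 in bladder (-7.26 ± 0.45, adjusted p = 0.000128). No other tissue had a mean above 40.7. Asz1, a germ cell gene that lies next to Wnt2 on chromosome 6, was at 0 in every kidney library and 173, 218 and 341 in bladder, at least 108-fold higher (adjusted p = 0.000357).

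Wnt4, a ligand, was at 22, 104 and 51 in kidney and 860, 2001 and 956 in bladder (-4.56 ± 0.58, adjusted p = 0.00192), and Wnt5b at 56, 97 and 68 against 1170, 932 and 846 (-3.74 ± 0.35, adjusted p = 0.000487). Gli1, the transcription factor that reports hedgehog signalling, was at 34, 34 and 69 against 765, 470 and 313 (-3.46 ± 0.50, adjusted p = 0.00311). Among the secreted or membrane modulators, Dkk3, Wif1 and the receptor Fzd1 were higher in bladder, with differences of -2.16, -3.63 and -1.75. Ihh, a hedgehog ligand of epithelia, went the other way, at 116, 166 and 53 in kidney and 9, 1 and 0 in bladder (5.23 ± 0.97, adjusted p = 0.00861).

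Of 45 BMP and TGF-beta genes 11 were higher in bladder (24.4%), 1, Acvr2b, was higher in kidney (2.22%) and 33 did not pass the test. The shares of all genes tested were 6.95% and 7.30%. The median was -0.48. Without single libraries 6 to 11 were higher in bladder, fewest without kidney 3. Bmp5 was at 36, 19 and 49 in kidney and 1489, 2022 and 486 in bladder (-5.09 ± 0.59, adjusted p = 0.00132). Bmp4, known in bladder smooth muscle formation, was at 150, 658 and 418 against 1753, 2188 and 2605 (-2.64 ± 0.49, adjusted p = 0.00871). The BMP antagonists Chrd and Fst were higher in bladder too, with differences of -2.47 and -2.15, so that both ligands and inhibitors were among the bladder-high genes.

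Of 18 retinoic acid genes 5 were higher in bladder (27.8%) and 1 in kidney (5.56%), against 6.95% and 7.30% of all genes tested. The median was -0.72, and 1 to 5 were higher in bladder without single libraries, fewest without kidney 3. The retinaldehyde-forming enzyme Rdh10 was at 217, 259 and 214 in kidney and 750, 2056 and 742 in bladder (-2.19 ± 0.42, adjusted p = 0.00974, and 0.0503 without kidney 3). Of 22 Notch pathway genes 5 were higher in kidney (22.7%, against 7.30% of all genes tested) and none in bladder by limma. Their median was 1.37, and 1 was higher in bladder at an unadjusted p under 0.05, 0 by edgeR and 1 by DESeq2. The kidney count ran from 1 to 10 without single libraries and was lowest without kidney 3. Hey2, a target of Notch in arterial cells, was at 780, 738 and 773 in kidney and 132, 109 and 31 in bladder (3.30 ± 0.53, adjusted p = 0.00493). The other 4, Notch4, Dll4, Heyl and Mfng, lost their calls without kidney 3, and Notch4 and Dll4 are endothelial genes. Notch3, the Notch receptor of mural cells, was at 4549, 1546 and 6890 against 3232, 449 and 223 (adjusted p = 0.12).

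Of 22 elastic fibre genes 11 were higher in bladder and none in kidney by limma, also at an unadjusted p under 0.05 and by edgeR and DESeq2, with a median of -1.07, and 15 were near the read ceiling; without single libraries 4 to 10 were higher in bladder, fewest without kidney 1. Emilin2, an elastin interface protein below the ceiling, was at 27, 6 and 18 in kidney and 1183, 653 and 766 in bladder (-5.76 ± 0.59, adjusted p = 0.000693). Fbln2, a fibulin, was at 426, 1101 and 469 against 5671, 3180 and 5438 (-2.93 ± 0.40, adjusted p = 0.00259), and the crosslinking enzyme Loxl2 differed by -3.68. Eln, elastin itself, overlapped between the tissues, at 2068 to 5471 in kidney and 3682 to 6415 in bladder (adjusted p = 0.458).

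Of 22 fibrillar and associated collagens 8 were higher in bladder and 1 in kidney, with a median of -1.49, and without single libraries 5 to 10 were higher in bladder, fewest without kidney 2. Col5a2, which sets fibril width with type I collagen, was at 532, 734 and 962 in kidney and 6589, 4573 and 3863 in bladder (-2.76 ± 0.31, adjusted p = 0.00105). Col12a1, a fibril-associated collagen below the ceiling, was at 572, 113 and 893 against 5238, 2870 and 2585 (-3.13 ± 0.68, adjusted p = 0.016). Col1a1 was at 3931 to 10322 in kidney and 8427 to 13785 in bladder (adjusted p = 0.201). The kidney-high member was Col2a1, a cartilage collagen, at 111, 86 and 139 against 0, 1 and 1 (6.13 ± 0.71, adjusted p = 0.00132). The summed signals of the fibroblast and immune markers were higher in all 3 bladder libraries, as given above. Col1a1, Col15a1 and the elastic fibre gene Mfap5 are also fibroblast list members, so these lists overlap. The part of other cell types in the matrix differences was not tested.

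Of 26 basement membrane genes 3 were higher in kidney and 3 in bladder, with a median of -0.30. Each count is 11.5%, against 7.30% and 6.95% of all genes tested. Without single libraries the counts were 1 to 7 and 0 to 4, lowest without kidney 1 and kidney 2. Npnt, an integrin ligand needed in kidney development, was at 1577, 2006 and 2562 in kidney and 412, 154 and 153 in bladder (3.23 ± 0.42, adjusted p = 0.00206). Col4a3 and Col4a4, collagen chains of the glomerular basement membrane, were higher in kidney by 2.49 and 2.58 with calls that ended without kidney 3, at an adjusted p of 0.107 and 0.161. The laminin chains Lama2, Lama4 and Lamc1 were higher in bladder, with differences of -2.24, -2.13 and -1.73, and none of the 3 passed without kidney 2.

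**Figure D5:**
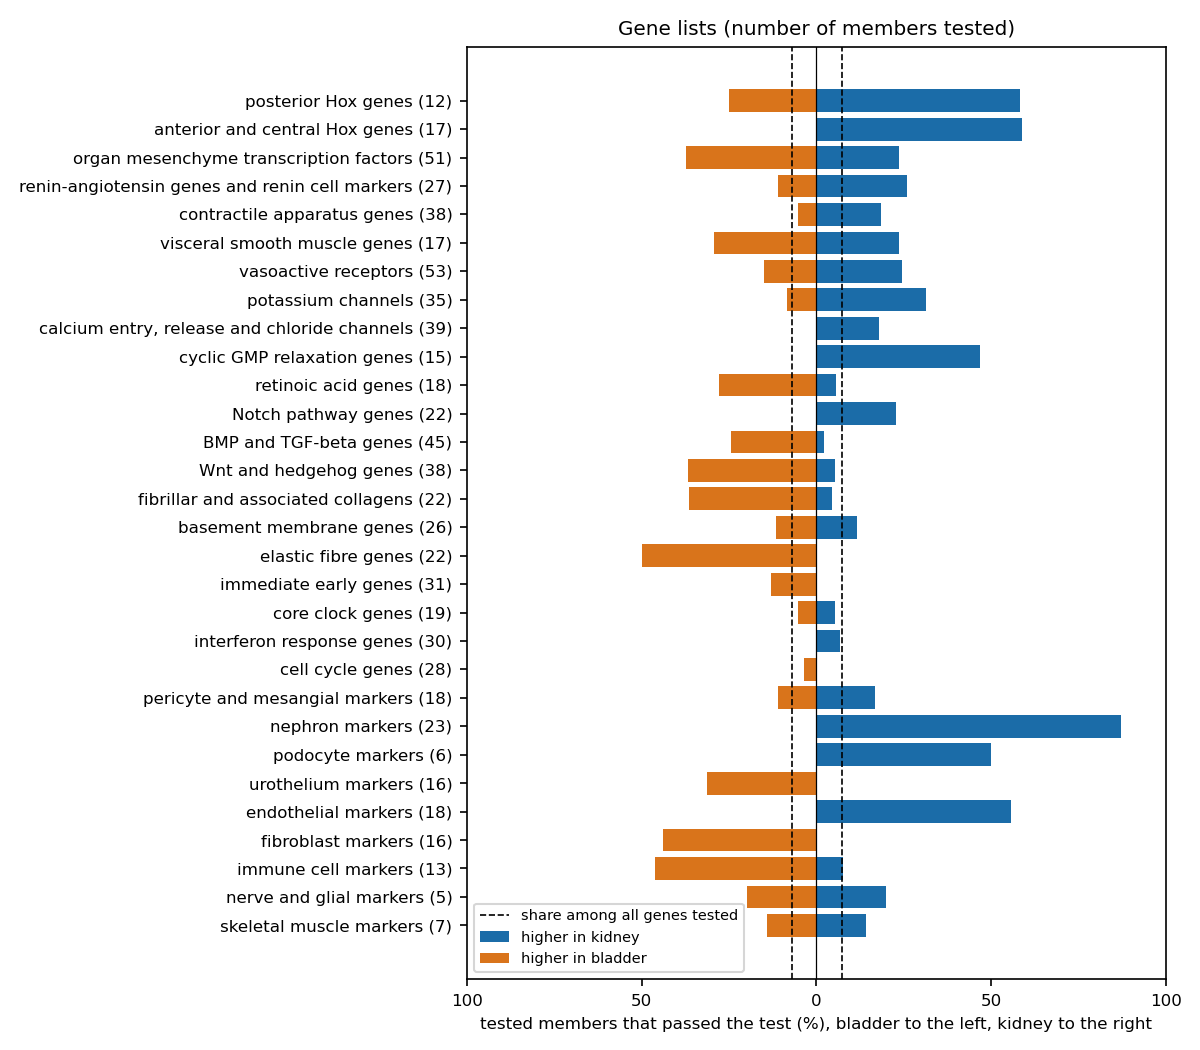
Percentage of the tested members of each gene list that passed the test, higher in bladder to the left and higher in kidney to the right, with the number tested in brackets. Dashed lines mark the shares among all genes tested, 6.95% for bladder and 7.30% for kidney. Both Hox lists and the cyclic GMP list reach far past the line toward kidney, as do the nephron (87%) and endothelial (55.6%) markers. The elastic fibre, Wnt and hedgehog lists pass the line toward bladder, as do the immune (46.2%) and fibroblast (43.8%) markers. The posterior Hox list also reaches 25% toward bladder.

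Among genes outside these lists, the largest kidney differences were of 2 kinds. Slc27a2, Ugt3a2, Sult1d1, Akr1c21, Cyp2j5, Keg1, Kcnj1, Tmem52b, Egf, Cltrn and Kl, most of them known from renal tubules, stood at 0 to 11 in bladder libraries and 214 to 4867 in kidney libraries. Glp1r, the receptor for the incretin GLP-1, was at 3251, 1472 and 2859 in kidney and 9, 1 and 0 in bladder (9.78 ± 0.83, adjusted p = 0.000332), and its highest mean elsewhere was 510.7, in stomach. Myh6, the atrial myosin heavy chain, was at 2028, 310 and 1295 against 2, 3 and 0 (8.67 ± 0.86, adjusted p = 0.00058). Heart libraries had a lower Myh6 mean than kidney, at 191.0.

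The largest bladder differences outside the lists included Adam23, a membrane protein that binds integrins, at 5, 15 and 0 in kidney and 2368, 2589 and 1580 in bladder (-8.86 ± 0.90, adjusted p = 0.000651). Mc5r, a melanocortin receptor, was at 2, 1 and 0 against 860, 1070 and 549 (-8.78 ± 0.65, adjusted p = 0.000218). Prss35, a secreted serine protease relative, was at 11, 16 and 1 against 2195, 3680 and 1194 (-8.17 ± 0.81, adjusted p = 0.000595). Each of these had a mean of at most 239.7 in any other tissue. Krtdap was at 0, 1 and 0 in kidney and 231, 220 and 637 in bladder. Mmrn1 was at 8, 0 and 0 against 422, 158 and 1272. Retnla, Anxa8 and Gpr1 were at 0 in every kidney library. In bladder they were at 226, 182 and 386, at 92, 243 and 530, and at 151, 148 and 271. The part of other cell types in the differences of this set was not tested.

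Among genes with a mean of 100 or more in both tissues, Gprc5c, an orphan receptor, was at 2300, 2115 and 2350 in kidney and 481, 176 and 71 in bladder (3.62 ± 0.58, adjusted p = 0.0049). Or51e1, an olfactory-type receptor, was at 2348, 2482 and 3063 against 533, 335 and 75 (3.45 ± 0.62, adjusted p = 0.00734), and heart had a higher mean, at 5604. On the bladder side, Car3, a carbonic anhydrase, was at 149, 177 and 108 in kidney and 2469, 3353 and 4360 in bladder (-4.53 ± 0.32, adjusted p = 0.000211). Armh4 was at 80, 236 and 307 against 3706, 4959 and 3454 (-4.46 ± 0.47, adjusted p = 0.000771). Gpnmb, Spon2, Itm2a, Scara5, Serpina3n and Cd55 were higher in bladder, with differences of -5.33, -4.48, -4.15, -4.07, -3.88 and -3.84, and Scara5 is itself one of the fibroblast markers. In a fit of all 22 libraries Gprc5c, Car3 and Scara5 lost their calls, at an adjusted p of 0.0694, 0.0937 and 0.154.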

How the data were processed

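RNA was measured by full-length cDNA sequencing of sorted arterial smooth muscle cells. The authors deposited a table of 28099 genes whose values are a signal, judged from the values to be reads per gene scaled per library and rounded; its coordinates are on mm39. Tools named, per the submitters' processing notes and without order, are featureCounts 2.0.4, STAR 2.7.10a, Trimmomatic 0.39, DESeq2 1.36.0, DESeq and Picard 3.0.0.

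The main test was limma 3.58.1 (trend) in R 4.3.3 on log2(signal + 1) of the 6 kidney and bladder libraries, with Benjamini-Hochberg adjustment over 14350 genes. A fit of all tissues would take its spread partly from the shallow aorta libraries. Differences on this scale understate the change of low genes. Reads were rebuilt by dividing the signal by the worth of 1 read, found per library; all values from 1 to 1500 in kidney 3 and bladder 3 lay within 0.5 units of a whole read, where chance gives 88.2% and 74.5%. For the other 4 libraries a read is worth under 1 unit and no such check is possible. edgeR 4.0.16 and DESeq2 1.42.0 on these reads called 1721 and 2679 genes. Exon lengths for the read ceiling came from GENCODE M21 and matched 96.2% of the genes. The main limma fit was tested on simulated data. The alternative fits, the rebuilding of reads and the lower bounds were not. Promoters came from RefSeq tables on GRCm38.p6, matched by symbol for both genes shown.

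Named genes were drawn from the 15 called genes of largest difference in each direction with a mean of 100 or more, the 10 with that mean in both tissues, up to 4 called and 2 abundant members of each list, all posterior Hox genes and 6 fixed genes. Predicted genes were skipped. Not every gene of these sets is named in the text, and which were left out was not fixed by the rule. Further list members, Fendrr and Hottip were chosen after their values were seen. The members and lists were chosen with earlier results of these data known. Some genes are not reported here.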

Additional observations from a re-analysis of the deposited data

How the results depend on the processing

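With all 21 alternatives, 125 of the 285 called genes that are named or listed kept their call in each, and none reversed. The others lost the call, or were not tested, in at least 1. A fit of 18 libraries without aorta and heart 3, which has more residual samples, called 2465 genes higher in kidney and 2254 higher in bladder, against 1047 and 998. Leaving out 1 library at a time gave 467 to 1565 and 533 to 986, and leaving out kidney 2 and bladder 3, an alternative added after the data were seen, gave 500 and 524. Restriction to the 12235 genes under the read ceiling, also added afterwards, gave 782 and 676. The fit with the replicate number as a block called 1289 and 1235. Deviations of kidney and bladder libraries with the same number correlated at 0.301, 0.179 and -0.0144, which does not establish a pairing by number or its absence, and not every library correlated best with its own number (kidney 3 with bladder 1, 0.118). Low counts limit genes near 3 reads, worth 1.37 to 4.02 units, and the read ceiling limits abundant genes.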

Other observations

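Of 31 immediate early genes 4 were higher in bladder (12.9%, against 6.95% of all genes tested). None was higher in kidney by limma, at an unadjusted p under 0.05 or by edgeR or DESeq2. Of the 31, 28 were near the read ceiling, and the median of the list was -0.53. Klf4, a factor that restrains contractile genes in smooth muscle, was at 796, 700 and 922 in kidney and 2733, 3276 and 2894 in bladder (-1.88 ± 0.24, adjusted p = 0.00176). Myc was at 830, 829 and 417 against 2168, 3294 and 1729 (-1.81 ± 0.36, adjusted p = 0.0117), and Egr2 and Fosl1 were higher in bladder, with differences of -1.82 and -3.70. Fos and Jun overlapped between the tissues.

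Of 30 interferon response genes 2 were higher in kidney, Rsad2 and Ifi44 (6.67%, against 7.30% of all genes tested). Rsad2, an antiviral protein, was at 444, 915 and 504 in kidney and 21, 7 and 40 in bladder (4.93 ± 0.65, adjusted p = 0.00217). Of 19 core clock genes 1, Rora, was higher in bladder and 1, Hlf, in kidney (5.26% each, below the shares of all genes tested). Of 28 cell cycle genes 1, Ccne1, was higher in bladder (3.57%, against 6.95% of all genes tested). Its call ended in 4 of the 6 fits that left out a library. Of 18 pericyte and mesangial markers 3 were higher in kidney (16.7%) and 2 in bladder (11.1%), against 7.30% and 6.95% of all genes tested. Without single libraries 0 to 7 were higher in kidney, fewest without kidney 1. Rgs5, a pericyte regulator of G protein signalling, was at 3661, 5236 and 8095 in kidney and 2000, 2451 and 412 in bladder (adjusted p = 0.0554). Postn, a matrix protein, was at 447, 317 and 942 against 2255, 4182 and 2354 (-2.46 ± 0.43, adjusted p = 0.00647). Of 6 podocyte markers 3 were higher in kidney (50%), and none without kidney 2 and bladder 3 together. Of 5 nerve and glial markers 1 was higher in each tissue (20%). These were Ret, at 67, 22 and 39 in kidney, and Tubb3, at 34, 59 and 12 in bladder. Both calls ended without kidney 3. Of 7 skeletal muscle markers 1 was higher in each (14.3%). These were Pvalb, at 10, 96 and 173 in kidney, and Tnni2, at 85, 81 and 125 in bladder. Both calls ended without kidney 2 and bladder 3 together.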
